A study of Mus musculus with 28 samples.

Results

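The genes described here are the chains of the mouse MHC class II system and Ciita, the regulator that switches them on. The list held 10 gene symbols, and a gene was measured where a probeset (the group of probes on the array that reads a transcript) was assigned to that symbol alone. This gave 8 genes of the 19272 in the table: H2-Aa, H2-Ab1, H2-Eb1, H2-DMa, H2-Oa, H2-Ob, Cd74 and Ciita, each with 1 probeset. H2-DMb1 and H2-DMb2 share 1 probeset that lists both symbols, and neither was used. All 8 genes passed the filter on dim genes that left 14325 genes for testing.

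The arrays measured RNA from renal dendritic cells. They were sorted on CD45, on CD11c and on MHC class II at the cell surface, so class II protein was itself a condition of the sort in every group. Healthy kidneys came from C57BL/6 and from BALB/c mice, and cells were taken from cortex (outer kidney) and medulla (inner kidney), with 4 arrays in each of these 4 groups. In kidney allografts 3 days after transplantation, donor cells (CD45.2, labelled BALB/c) and host cells (CD45.1, labelled C57BL/6) were sorted from the same cortex and the same medulla, with 3 arrays in each of these 4 groups. The 28 arrays carry 11 mouse numbers, which join the cortex and medulla of a kidney and the donor and host cells of a graft. Every level below is log2 array signal, so a step of 1 is a doubling of signal, and levels of different genes are not compared because each probeset has its own brightness. A difference is given on the log2 scale ± SE, from a linear model (limma) fitted to all genes, and a gene is called higher or lower where its p, adjusted over the genes tested by the method of Benjamini and Hochberg, was under 0.05.

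MHC class II molecules carry peptides from taken-up protein to the cell surface, where CD4 T cells read them. In the mouse the presenting molecules are I-A, made of the chains of H2-Aa and H2-Ab1, and I-E, made of the chains of H2-Ea and H2-Eb1. New molecules are held by the invariant chain, encoded by Cd74, whose last fragment is exchanged for peptide with the help of the editor H2-DM, while H2-DO, made of the chains of H2-Oa and H2-Ob, restrains H2-DM. Ciita does not bind DNA itself: it is recruited by the RFX, CREB and NF-Y factors that sit on the X and Y boxes of class II promoters. C57BL/6 mice carry a defect of H2-Ea that leaves them without I-E, and BALB/c mice make I-E.

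The promoters of the presenting and H2-DO genes are shown because these genes share the paired boxes through which Ciita acts. RefSeq promoters (build GRCm38.p6, 250 bases before to 50 bases after the gene start) were used for 7 of the 10 symbols, in 8 entries. H2-Ab1 and Ciita had no entry. Cd74 lies on a chromosome that was left out for the members, though not for the count over all promoters, so its promoter was not examined. The entries of these genes were searched along the gene strand for the letters GCAAC, the core of the X box, followed within 20 to 40 bases by GATTGG, the core of the Y box. In the counts over all promoters a match on either strand was taken, a wider rule. The letters were chosen after the sequences had been read. The pair was in 4 of the 7 genes, with the X core starting 76 to 91 bases before the gene start, and in 0.35% of all 32851 promoters of that length. GCAAC alone was in 35.2% and GATTGG alone in 16.1%. Each window below is written along the gene, 5′ to 3′, with both cores in capitals, and the spacing between the cores is 27 bases in H2-Aa, 26 in H2-Eb1, 27 in H2-Oa and 24 in H2-Ob. The windows are chr17:34287852-34287919 (minus strand) for H2-Aa, chr17:34305761-34305827 for H2-Eb1, chr17:34092288-34092355 for H2-Oa and chr17:34238803-34238867 for H2-Ob, the last 3 on the plus strand.
H2-Aa: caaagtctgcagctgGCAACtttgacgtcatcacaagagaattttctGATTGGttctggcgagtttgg
H2-Eb1: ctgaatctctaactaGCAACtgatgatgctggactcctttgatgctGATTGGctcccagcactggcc
H2-Oa: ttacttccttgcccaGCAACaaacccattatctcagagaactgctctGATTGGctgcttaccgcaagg
H2-Ob: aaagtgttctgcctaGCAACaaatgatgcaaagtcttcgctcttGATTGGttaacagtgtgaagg
The entries of H2-DMa, H2-DMb1 and H2-DMb2 did not hold the pair within these letters and spacing. These matches describe the reference sequence and do not show that a factor was bound in these cells.

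H2-Ea separated the healthy strains and was out of step with the label of the host cells. In C57BL/6 kidneys its 8 arrays lay between 6.25 and 6.76, and in BALB/c kidneys between 12.90 and 13.33. Donor arrays lay between 12.37 and 13.00, with 1 of 6 inside the BALB/c range and 5 just below it. The 3 host cortex arrays stood at 10.18, 11.78 and 11.18, and the 3 host medulla arrays at 9.63, 9.41 and 6.45. Of the 6 arrays labelled C57BL/6 host, 5 were thus far above every healthy C57BL/6 array, and 1, host medulla replicate 3, was within their range. H2-Ea was higher in host than in healthy C57BL/6 cells by 4.47 ± 0.47 in cortex (adjusted p = 1.5e-06) and 2.13 ± 0.47 in medulla (adjusted p = 0.0032). The other 4 genes whose arrays of the 2 healthy strains lay more than 2 apart were picked after their values were seen. Ifi202b, an interferon-induced gene, averaged 5.32 and 5.21 in C57BL/6 cortex and medulla, 8.95 and 8.89 in BALB/c, and 6.07 and 5.47 in host cells. Trim12a, a TRIM family gene, averaged 10.45 and 10.24 in C57BL/6, 6.43 and 6.50 in BALB/c, and 8.13 and 7.73 in host cells. Nlrp1c-ps, a pseudogene, averaged 11.42 and 11.11 in C57BL/6, 7.51 and 7.42 in BALB/c, and 7.87 and 7.07 in host cells. Slamf7, a receptor of the SLAM family, averaged 11.65 and 11.76 in C57BL/6, 8.36 and 7.91 in BALB/c, and 9.25 and 6.79 in host cells. Host means were thus nearer to C57BL/6 for Ifi202b, between the strains for Trim12a, and near or below BALB/c for Nlrp1c-ps and, in medulla, Slamf7. Single host arrays lay far apart. Ifi202b read 5.47, 7.40 and 5.34 in host cortex, and replicate 2 was above every healthy C57BL/6 array. Trim12a read 10.21, 7.36 and 6.81 in host cortex and 9.25, 7.82 and 6.11 in host medulla. Donor cells averaged 6.50 for Slamf7 in medulla, also below BALB/c. The part of the lower leukocyte transcripts of graft arrays, given below, in these levels was not tested. The source of the H2-Ea signal on the host arrays was not tested, and each comparison below that uses host arrays rests on these 6 arrays.

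**Figure D1:**
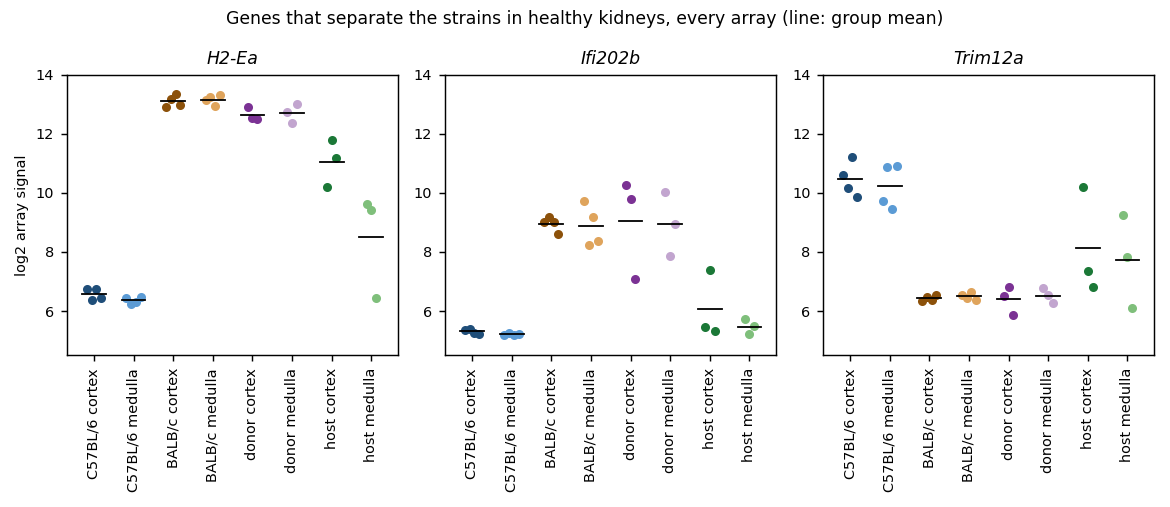
Log2 array signal (vertical axes) of H2-Ea, Ifi202b and Trim12a on every array, by group, with a line at each group mean. H2-Ea is between 6.25 and 6.76 in healthy C57BL/6 kidneys and between 12.90 and 13.33 in BALB/c kidneys, and 5 of 6 host arrays lie between these ranges.

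Leukocyte transcripts as a whole were lower, and epithelial transcripts higher, on the graft arrays. The mean of 23 leukocyte-wide genes was, for cortex then medulla, 11.31 and 11.49 in C57BL/6, 11.07 and 11.01 in BALB/c, 10.22 and 9.90 in donor cells, and 10.33 and 8.85 in host cells. The mean of 15 epithelium-wide genes was 7.99 and 7.83, 7.92 and 8.45, 8.90 and 9.76, and 8.95 and 10.05 in the same order. In sorted bulk samples fewer cells of a type and less RNA per cell cannot be told apart. Macrophage markers (8 genes) averaged between 10.57 and 11.39 in healthy and donor groups and 8.13 and 8.20 in host cortex and medulla, and conventional dendritic cell markers (12 genes) averaged 9.77 and 10.10 in C57BL/6, 9.54 and 8.72 in BALB/c, 8.49 and 7.62 in donor cells and 8.54 and 7.67 in host cells. B cells are a class II-positive cell type that the sort could hold. The B cell markers (9 genes, of which 8 passed the filter on dim genes) averaged 6.89 to 7.79, with the highest group mean in C57BL/6 cortex. Arrays correlated with the rest of their group at a mean r of 0.848 to 0.950, except BALB/c medulla replicate 1 (0.788).

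All 8 genes had their highest group mean in healthy C57BL/6 kidney. H2-Ab1, the I-A beta chain, read 13.08, 13.21, 13.33 and 13.23 in C57BL/6 cortex and 13.28, 13.14, 13.27 and 13.27 in C57BL/6 medulla. In BALB/c it read 12.00, 11.95, 12.17 and 11.83 in cortex and 12.05, 11.78, 11.61 and 12.04 in medulla. In donor cells it read 11.07, 11.11 and 11.25 in cortex and 10.84, 9.81 and 11.66 in medulla, and in host cells 12.57, 11.45 and 11.23 in cortex and 10.92, 8.87 and 8.84 in medulla. Its group means thus ran from 13.24 (C57BL/6 medulla) through 13.22 (C57BL/6 cortex), 11.99 (BALB/c cortex), 11.87 (BALB/c medulla), 11.75 (host cortex), 11.14 (donor cortex) and 10.77 (donor medulla) to 9.54 (host medulla). Along this order, the step from C57BL/6 cortex to BALB/c cortex was the 1 step at which no arrays overlapped.

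**Figure D2:**
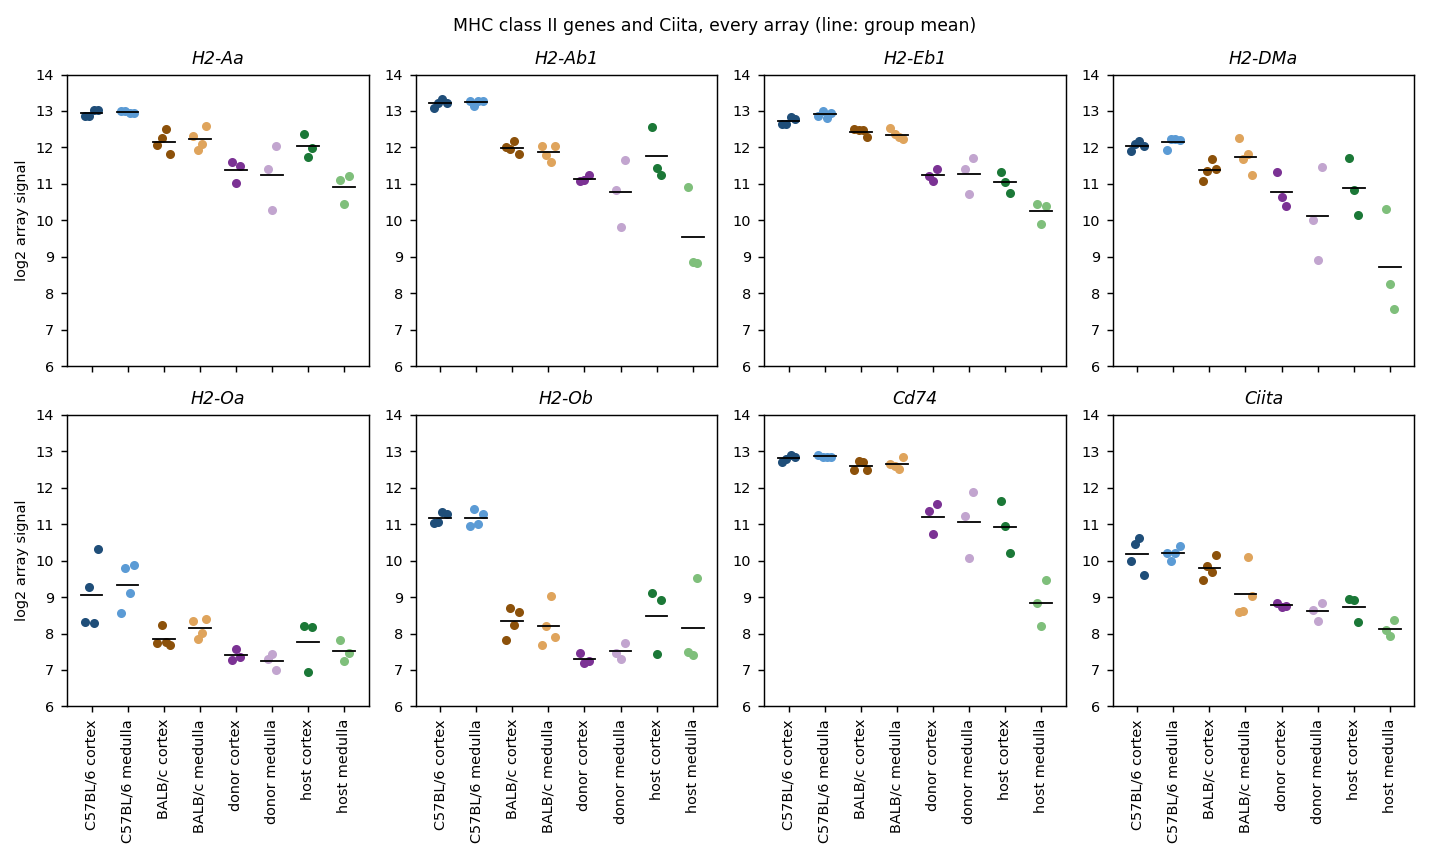
Log2 array signal (vertical axes, 6 to 14) of the 8 measured class II genes on every array, by group, with a line at each group mean. H2-Ob drops from means of 11.17 and 11.16 in C57BL/6 to 8.34 and 8.21 in BALB/c cortex and medulla, while Cd74 stays at 12.59 and 12.64 in BALB/c and drops in graft cells, to 8.83 in host medulla.

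The strain comparison asked how healthy BALB/c cells differ from healthy C57BL/6 cells. Of the 8 genes, the H2-DO beta chain had the largest difference; that of H2-Ea, outside the 8, was larger (6.51 ± 0.44 in cortex and 6.78 ± 0.44 in medulla). H2-Ob read 11.03, 11.06, 11.33 and 11.27 in C57BL/6 cortex against 7.81, 8.69, 8.25 and 8.60 in BALB/c cortex. In medulla it read 10.96, 11.43, 11.00 and 11.27 against 7.70, 8.20, 9.04 and 7.89. No BALB/c array reached a C57BL/6 array in either region, and H2-Ob was lower in BALB/c, with a difference of -2.83 ± 0.39 in cortex (7.12-fold, adjusted p = 0.00031) and -2.96 ± 0.39 in medulla (7.77-fold, adjusted p = 0.00017). H2-Oa, the H2-DO alpha chain, was lower too, at -1.19 ± 0.36 in cortex (adjusted p = 0.042) and -1.19 ± 0.36 in medulla (adjusted p = 0.045). This probeset is dim, between the 24.7th and 88.8th percentile of its array, and spread widely within C57BL/6 cortex (8.29 to 10.32).

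Of the presenting chains, H2-Ab1 was lower in BALB/c in both regions and the other chains less evenly. The difference of H2-Ab1 was -1.23 ± 0.37 in cortex (adjusted p = 0.039) and -1.37 ± 0.37 in medulla (adjusted p = 0.03), with no overlap of arrays. H2-Aa, the I-A alpha chain, differed by -0.78 ± 0.26 (adjusted p = 0.061) and -0.73 ± 0.26 (adjusted p = 0.073), and its arrays did not overlap either. H2-Eb1, the I-E beta chain, differed by -0.29 ± 0.17 in cortex (adjusted p = 0.29) and by -0.56 ± 0.17 in medulla, where it was lower (adjusted p = 0.043). H2-DMa, the alpha chain of the editor, differed by -0.66 ± 0.47 and -0.40 ± 0.47 (adjusted p = 0.4 and 0.57). Cd74, the invariant chain, differed by -0.21 ± 0.31 and -0.22 ± 0.31 (adjusted p = 0.72 and 0.64). Ciita read 9.98 to 10.40 in C57BL/6 medulla against 8.58, 8.61, 10.11 and 9.04 in BALB/c medulla, where replicate 3 reached the C57BL/6 range. Its difference was -0.38 ± 0.27 in cortex (adjusted p = 0.39) and -1.12 ± 0.27 in medulla (adjusted p = 0.019).

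In all, 3 of 8 genes were lower in BALB/c cortex and 5 of 8 in BALB/c medulla, and none was higher, where 9.8% and 9.1% of all genes were called in either direction (1.93% and 2.63% lower). The arrays of the strains did not overlap for 6 of 8 genes in each region, against 22.4% and 23.5% of all genes. The median difference of the 8 genes was -0.72 in cortex and -0.92 in medulla, where that of all genes was 0.09 and 0.17. In the same comparisons 0 of 23 leukocyte-wide genes were called, with medians of -0.20 and -0.34, and conventional dendritic cell markers had 0 and 4 of 11 lower. Itgax, which encodes the sort marker CD11c, differed by -0.85 ± 0.52 (adjusted p = 0.31) in cortex and -2.66 ± 0.52 (adjusted p = 0.0062) in medulla; the part of these transcripts in the class II differences was not tested. BALB/c mice carry other H2 alleles than C57BL/6 mice, and how well the probes match the BALB/c alleles was not tested. H2-Ob kept its call without any 1 array, whereas H2-Ab1 in cortex lost it without any of the 8 arrays (adjusted p = 0.055 to 0.1) and in medulla without C57BL/6 replicates 1, 2, 3 or 4 or BALB/c replicates 1 or 4 (up to 0.072). H2-Oa in cortex lost it without C57BL/6 replicates 2 or 4 or BALB/c replicates 1, 3 or 4 (up to 0.15), H2-Oa in medulla without any but C57BL/6 replicate 1 (up to 0.12), H2-Eb1 in medulla without any but BALB/c replicate 2 (up to 0.1) and Ciita in medulla without C57BL/6 replicates 3 or 4 or BALB/c replicate 1 (up to 0.08). With mouse as a random block H2-Aa in cortex was also called (adjusted p = 0.047).

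The regional comparison asked whether cells of the medulla differ from cells of the cortex in the same kidney. In healthy kidneys no class II gene was called by limma. The differences of medulla minus cortex lay between -0.01 (H2-Ob) and 0.29 (H2-Oa) in C57BL/6, with 0 of 8 genes called where 0.154% of all genes were. They lay between -0.71 (Ciita) and 0.37 (H2-DMa) in BALB/c, with 0 of 8 called against 0.0698%. At an unadjusted p under 0.05 the counts were 0 and 1. Donor cells of the graft also had 0 of 8 genes called between regions (2.55% of all genes; 0 at an unadjusted p under 0.05), with differences between -0.66 ± 0.55 (H2-DMa) and 0.20 ± 0.45 (H2-Ob). The spread was wide in donor medulla, where replicate 2 was the lowest and replicate 3 the highest for H2-Aa, H2-Ab1, H2-Eb1, H2-DMa and Cd74. Cd74, for example, read 11.21, 10.08 and 11.87 there. Itgax was lower in donor medulla than in donor cortex (-2.64 ± 0.60, adjusted p = 0.014).

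Donor cells were compared with healthy BALB/c cells of the same region. This comparison does not separate transplantation from the lower leukocyte and higher epithelial transcripts of the donor arrays given above. Cd74 and H2-Eb1 were lower in donor cells in both regions. Cd74 read 12.47, 12.72, 12.69 and 12.48 in BALB/c cortex against 11.35, 10.73 and 11.55 in donor cortex, and 12.64, 12.59, 12.51 and 12.83 in BALB/c medulla against the donor medulla values above. No donor array reached a BALB/c array, and the difference of Cd74 was -1.38 ± 0.33 in cortex (2.61-fold, adjusted p = 0.0056) and -1.59 ± 0.33 in medulla (adjusted p = 0.014). H2-Eb1 read 12.28 to 12.50 in BALB/c cortex against 11.21, 11.08 and 11.41 in donor cortex, and 12.22 to 12.52 in BALB/c medulla against 11.40, 10.73 and 11.70 in donor medulla. Its differences were -1.20 ± 0.18 (adjusted p = 0.00021) and -1.07 ± 0.18 (adjusted p = 0.0031).

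Ciita and H2-Aa were called in cortex. Ciita read 9.47, 9.86, 9.68 and 10.15 in BALB/c cortex against 8.83, 8.73 and 8.77 in donor cortex, a difference of -1.02 ± 0.29 (adjusted p = 0.016). In medulla its difference was -0.47 ± 0.29 (adjusted p = 0.34). H2-Aa differed by -0.79 ± 0.28 in cortex (adjusted p = 0.046) and -0.99 ± 0.28 in medulla (adjusted p = 0.054, and 0.043 with mouse as a random block). H2-Ab1 (-0.84 ± 0.40 and -1.10 ± 0.40), H2-DMa (-0.59 ± 0.51 and -1.61 ± 0.51), H2-Oa (-0.46 ± 0.39 and -0.89 ± 0.39) and H2-Ob (-1.03 ± 0.42 and -0.70 ± 0.42) did not pass in either region. On donor arrays H2-Oa reached at most the 49.4th percentile and H2-Ob the 47.5th, so a larger fall of these 2 could hardly show.

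This made 4 of 8 genes lower in cortex and 2 of 8 in medulla, and none higher, where 23.9% and 3.18% of all genes were called in either direction (16% and 1.45% lower). The arrays did not overlap for 7 and 3 of 8 genes, against 29.9% and 15.3% of all genes. The medians of the 8 genes were -0.93 and -1.03, and those of all genes -0.13 and -0.11. The 23 leukocyte-wide genes had medians of -0.71 and -1.03, with 4 and 1 lower, and 6 of 14 epithelium-wide genes were higher in each region. Conventional dendritic cell markers had medians of -0.83 and -1.05, with 3 and 2 of 11 lower; the part of these transcripts in the class II differences was not tested. H2-Eb1 kept its calls without any 1 array; Cd74 lost its call without donor replicate 2 of cortex (adjusted p = 0.05) or of medulla (0.13), Ciita without donor cortex replicate 2 or BALB/c cortex replicate 4 (up to 0.061), and H2-Aa in cortex without any array but BALB/c replicate 4 (up to 0.21). Without donor medulla replicate 3, 5 of 8 genes were called in medulla, with H2-Aa (0.0071), H2-Ab1 (0.042) and H2-DMa (0.018) added. H2-Aa in medulla was also called without BALB/c replicates 2 or 3 (0.046 and 0.043). In a fit without the host arrays, added after the data were seen, 4 of 8 were called in medulla (H2-Ab1 and H2-DMa as well, both at adjusted p = 0.033), and H2-Ab1 (0.028) and H2-Ob (0.0094) were added in cortex.

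Host cells were compared with healthy C57BL/6 cells, the strain on their label. The arrays of host and C57BL/6 cells did not overlap for any of the 8 class II genes in either region, with host arrays below. In medulla the order of size was Cd74, H2-Ab1, H2-DMa, H2-Ob, H2-Eb1, Ciita, H2-Aa and H2-Oa. Cd74 read 12.89, 12.85, 12.85 and 12.85 in C57BL/6 medulla against 8.83, 8.20 and 9.46 in host medulla. This is a difference of -4.03 ± 0.33 (16.3-fold, adjusted p = 2e-08). H2-Ab1 differed by -3.70 ± 0.40 (13-fold, adjusted p = 8.6e-07), with host medulla replicate 1 at 10.92 and the other 2 arrays at 8.87 and 8.84. H2-DMa read 11.93, 12.23, 12.23 and 12.20 against 10.30, 8.26 and 7.57, a difference of -3.44 ± 0.51 (adjusted p = 6.1e-05). H2-Eb1 differed by -2.66 ± 0.18 (adjusted p = 1.6e-09), H2-Aa by -2.04 ± 0.28 (adjusted p = 2.5e-05) and H2-Oa by -1.81 ± 0.39 (adjusted p = 0.0027). Ciita read 9.98 to 10.40 against 8.08, 7.93 and 8.38, a difference of -2.07 ± 0.29 (adjusted p = 3e-05). H2-Ob differed by -3.02 ± 0.42 (adjusted p = 2.6e-05), and its 3 host arrays were far apart at 7.49, 7.40 and 9.53.

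In cortex 5 of the genes were called. H2-Eb1 read 12.63 to 12.83 in C57BL/6 cortex against 11.31, 11.06 and 10.74 in host cortex, a difference of -1.68 ± 0.18 (adjusted p = 2.2e-06). H2-Ob read 9.10, 7.43 and 8.93 in host cortex, a difference of -2.68 ± 0.42 (adjusted p = 0.00032). Cd74 read 11.64, 10.94 and 10.20 and differed by -1.87 ± 0.33 (adjusted p = 0.0012), Ciita read 8.95, 8.92 and 8.31 and differed by -1.45 ± 0.29 (adjusted p = 0.0038), and H2-Ab1 differed by -1.46 ± 0.40 (adjusted p = 0.036). H2-Aa (-0.91 ± 0.28, adjusted p = 0.075), H2-DMa (-1.14 ± 0.51, adjusted p = 0.29) and H2-Oa (-1.27 ± 0.39, adjusted p = 0.073) did not pass. For H2-Ab1, H2-Eb1, H2-DMa, Cd74 and Ciita, replicate 1 was the highest host cortex array and replicate 3 the lowest, as they were for Ptprc (12.66 and 10.35) and the leukocyte-wide mean (11.35 and 9.29).

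The counts were 5 of 8 lower in cortex and 8 of 8 in medulla, where 4.17% and 11.5% of all genes were called (2.15% and 5.22% lower), and arrays did not overlap for 8 of 8 in each region against 14.9% and 24.3% of all genes. The medians were -1.45 and -2.84 (all genes -0.01 and 0.07). Leukocyte-wide genes had medians of -0.86 and -2.86, with 2 and 19 of 23 lower; Ptprc, which encodes CD45, differed by -1.09 ± 0.40 (adjusted p = 0.15) and -3.12 ± 0.40 (adjusted p = 9.8e-06). Itgax differed by -2.16 ± 0.56 (adjusted p = 0.026) and -3.43 ± 0.56 (adjusted p = 0.00017). Epithelium-wide genes had medians of 0.92 and 2.33, with 3 and 13 of 14 higher, and 7 of 8 macrophage markers and 3 and 8 of 11 conventional dendritic cell markers were lower. In cortex 3 of 6 plasmacytoid dendritic cell markers and 3 of 6 natural killer cell markers were higher in host cells, with array means of 8.60 to 11.37 against 8.55 to 8.79 for the first list and 8.11 to 9.72 against 7.20 to 7.84 for the second. The part of these transcripts in the class II differences was not tested. The 8 calls in medulla held without any 1 array; in cortex H2-Ab1 lost its call without C57BL/6 replicates 1, 2, 3 or 4 or host replicates 2 or 3 (up to 0.23), H2-Aa gained one without host replicate 1 (0.047) and H2-Oa without C57BL/6 replicates 1 or 3 (0.033 and 0.04).

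Among host cells, 5 of the class II genes were lower in medulla than in cortex. The difference was -2.21 ± 0.43 for H2-Ab1 (4.63-fold, adjusted p = 0.0023), -2.10 ± 0.35 for Cd74 (4.28-fold, adjusted p = 0.00061) and, for H2-DMa, -2.19 ± 0.55 (adjusted p = 0.02). H2-Aa read 12.37, 11.75 and 11.98 in cortex against 11.11, 10.45 and 11.21 in medulla and differed by -1.11 ± 0.30 (adjusted p = 0.035). H2-Eb1 read 10.45, 9.90 and 10.39 in medulla and differed by -0.79 ± 0.19 (adjusted p = 0.019). The arrays of these 5 genes did not overlap between regions except for H2-DMa, whose highest medulla array (10.30) passed the lowest cortex array (10.15). The H2-DO chains and Ciita differed by -0.26 ± 0.42 (H2-Oa), -0.35 ± 0.45 (H2-Ob) and -0.59 ± 0.31 (Ciita), and did not pass (adjusted p = 0.84, 0.79 and 0.42). In host cortex H2-Oa lay between the 28.4th and 64.5th percentile of an array and H2-Ob between the 43.2nd and 76.9th. In host medulla they lay at the 37.1th to 54.7th and the 41.7th to 84.6th. A fall of the H2-DO chains could thus hardly show from the dimmest cortex arrays, but could from the brighter ones.

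Thus 5 of 8 genes were lower in host medulla, where 4.29% of all genes were called (2.43% lower), and arrays of 4 of 8 did not overlap, against 17.5% of all genes. In the same comparison 9 of 23 leukocyte-wide genes were lower, with a median of -1.27, Ptprc differed by -2.04 ± 0.43, and 5 of 14 epithelium-wide genes were higher, with a median of 1.16; their part was not tested. With mouse as a random block the 5 calls held, but with mouse as a fixed term in a fit of the 6 host arrays 0 of 8 were called by limma (5 at an unadjusted p under 0.05), with adjusted p between 0.12 (H2-Ab1) and 0.35 (H2-Eb1) among those 5. Only H2-Ab1 and Cd74 kept their calls without any 1 array; H2-Aa lost it without host cortex replicates 1 or 3 or medulla replicates 1 or 2 (up to 0.18), H2-Eb1 without cortex replicates 1 or 2 or medulla replicate 2 (up to 0.12) and H2-DMa without cortex replicates 1 or 2 or medulla replicates 2 or 3 (up to 0.15).

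The regional difference of host cells was then set against that of healthy C57BL/6 cells. Cd74 was the 1 gene of 8 that passed, at -2.16 ± 0.47 (adjusted p = 0.024), where 0.901% of all genes did (0.398% lower). H2-Ab1 (-2.24 ± 0.56, adjusted p = 0.063) and H2-Eb1 (-0.98 ± 0.26, adjusted p = 0.084) did not pass, but did with mouse as a random block (0.029 and 0.037), which made 3 of 8. With mouse as a fixed term the 2 genes called were H2-Ab1 and H2-DMa (0.018 and 0.037), and Cd74 was not (0.16). Cd74 lost its call without host cortex replicates 1 or 2 or host medulla replicate 2 (up to 0.082), and 3 of 8 genes were called without host cortex replicate 3 (H2-Ab1 at 0.037 and H2-Eb1 at 0.036 added) or host medulla replicate 1 (H2-Ab1 at 0.0012 and H2-DMa at 0.013 added). In limma 0 of 8 genes passed when the regional differences of BALB/c and C57BL/6 kidneys were set against each other (0.0419% of all genes; 0 at an unadjusted p under 0.05), or those of donor and BALB/c cells (0.454%; 0) or of donor and host cells (0.0768%; 4). In the last, 1 gene passed when donor medulla replicate 2 or host cortex replicate 3 was left out (Cd74, 0.014 and 0.048) or host medulla replicate 1 (H2-Ab1, 0.033).

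Donor and host cells of the same grafts were compared within each region. In cortex 0 of 8 genes passed in limma (0.496% of all genes; 2 at an unadjusted p under 0.05), with differences of donor minus host between -1.18 ± 0.45 (H2-Ob) and 0.28 ± 0.35 (Cd74). The arrays did not overlap for 1 of 8 genes, H2-Aa, against 7.42% of all genes. In medulla Cd74 was higher in donor cells by 2.22 ± 0.35 (4.67-fold, adjusted p = 0.0012) and H2-Eb1 by 1.03 ± 0.19 (2.05-fold, adjusted p = 0.0077), and the arrays of both did not overlap. H2-Ab1 (1.23 ± 0.43) and H2-DMa (1.42 ± 0.55) did not pass (adjusted p = 0.39 and 0.51), nor did H2-Ob (-0.63 ± 0.45). These 2 of 8 stand against 0.593% of all genes called (0.419% higher) and arrays that do not overlap in 8.32%. Leukocyte-wide genes had a median of 0.77 with 3 of 23 higher, and macrophage markers 4 of 8 higher with a median of 2.31; their part was not tested. With mouse as a fixed term both calls were lost (adjusted p = 0.41 for Cd74 and 0.55 for H2-Eb1), and H2-Eb1 was also lost without donor replicates 1 or 3 or host replicate 2 (up to 0.093). Without host medulla replicate 1, 4 of 8 genes were called, with H2-Ab1 (0.0075) and H2-DMa (0.034) added.

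Donor and host cells also differ in strain, so the difference of donor and host was set against that of BALB/c and C57BL/6. In medulla the donor-host difference exceeded the strain difference by 2.60 ± 0.56 for H2-Ab1 (adjusted p = 0.021), 1.59 ± 0.26 for H2-Eb1 (adjusted p = 0.0019) and 2.44 ± 0.47 for Cd74 (adjusted p = 0.009). This is 3 of 8 genes, against 1.14% of all genes (0.754% higher), and with mouse as a random block 5 of 8, with H2-Ob (2.33 ± 0.56, adjusted p = 0.036) and Ciita (1.59 ± 0.40, adjusted p = 0.046) added. H2-Ab1 lost its call without donor medulla replicates 1 or 3 or host medulla replicates 2 or 3 (up to 0.08). Calls were gained by H2-Ob and Ciita without BALB/c medulla replicate 3 (0.027 and 0.0038), H2-Ob without host medulla replicate 3 (0.0018), H2-DMa without host medulla replicate 1 (0.037) and H2-Aa without donor medulla replicate 2 (0.016). In cortex the same measure lay between 0.12 (H2-Aa) and 1.65 (H2-Ob), with 0 of 8 genes passing in limma (0.775% of all genes; 1 at an unadjusted p under 0.05). These measures take the host arrays as labelled.

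The balance between the roles was described within each array, where a shift of all class II genes together drops out. Only changes of these differences between groups can be read, since each probeset has its own brightness. Between strains a change in RNA cannot be told apart from a difference in probe match to the H2 alleles, which was not tested. Cd74 minus the mean of the I-A chains was -0.28 ± 0.01 and -0.24 ± 0.02 (SD, n = 4) in cortex and medulla of C57BL/6 and 0.52 ± 0.14 and 0.59 ± 0.13 (SD, n = 4) in BALB/c. It was -0.05 ± 0.27 and 0.05 ± 0.03 in donor cells and -0.96 ± 0.39 and -1.40 ± 0.81 in host cells (SD, n = 3). All host arrays (-2.18 to -0.56) were below all arrays of every other group (lowest -0.34).
The H2-DO chains minus H2-DMa averaged -1.94 ± 0.49 and -1.90 ± 0.31 in C57BL/6 and -3.28 ± 0.32 and -3.57 ± 0.50 in BALB/c (SD, n = 4), without overlap (C57BL/6 from -2.36, BALB/c up to -2.89). In host medulla this measure ran from -2.64 to 0.93, the widest range of any group. There H2-Oa was at the 37.1th to 54.7th percentile and H2-Ob at the 41.7th to 84.6th. On the arrays where they were dim, a fall of theirs could hardly show in this measure. H2-DMa minus the mean of the I-A chains lay between -1.20 and 0.06 on the healthy arrays and at -2.46 to -0.71 in host medulla. H2-Eb1 minus H2-Ab1 was -0.49 ± 0.06 and -0.34 ± 0.14 in C57BL/6 against 0.44 ± 0.11 and 0.48 ± 0.21 in BALB/c (SD, n = 4), again without overlap. Ciita minus the mean of the I-A chains had group means between -3.17 and -2.10, and the ranges of most groups overlapped.

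Other genes of the class II pathway were taken from a list of 34 symbols, of which 28 were tested; the members of the list that are background here are the RFX, NF-Y and CREB factors, the signals that induce Ciita, the proteases that degrade the invariant chain and proteins of surface turnover. How many passed differed widely between comparisons. In the strain comparison 9.8% of all genes were called in cortex and 9.1% in medulla. H2-Ea was the 1 pathway gene higher in each region, and Jak1, a kinase of interferon receptors, the 1 lower in medulla (-1.42 ± 0.45, adjusted p = 0.049), where 2.63% of all genes were lower. Jak1 arrays overlapped, with 8.43 to 11.70 in BALB/c medulla against 11.65 to 12.14 in C57BL/6 medulla. The 7 RFX, NF-Y and CREB genes had 1 call in the 12 comparisons of groups. This was Rfxank (a subunit of RFX), lower in donor than in BALB/c cortex (-0.69 ± 0.20, adjusted p = 0.015), where 16% of all genes were lower. That comparison also had Ifngr1, a chain of the interferon-gamma receptor, lower (-1.56 ± 0.54), and Cd83, which keeps class II on the surface, lower (-1.58 ± 0.57). Ifngr1 spread widely in donor cortex, from 7.81 to 10.92, against 10.98 to 11.58 in BALB/c cortex. Ctsd and Ctsl, lysosomal proteases, and Marchf8, a ubiquitin ligase that removes class II from the surface, were higher by 2.23 ± 0.56, 1.70 ± 0.49 and 2.11 ± 0.48. This made 3 higher and 3 lower of 28, where 23.9% of all genes were called, so the share called was no larger than that of all genes. In medulla, with 3.18% of all genes called, 2 of 28 were lower: Ifi30, the lysosomal thiol reductase (-2.49 ± 0.39), and Spi1, the myeloid factor PU.1 (-1.65 ± 0.39).

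Host medulla had the most calls, 2 higher and 10 lower of 28 against C57BL/6 medulla, where 11.5% of all genes were called. Ctss, the protease that trims the invariant chain in dendritic cells, differed by -3.73 ± 0.34 (adjusted p = 9.3e-08), beside the lower Cd74. Ctsc, Ctsh, Lgmn and Ifi30, of the same lysosomal group, differed by -2.90 ± 0.54, -2.11 ± 0.38, -1.05 ± 0.29 and -1.70 ± 0.39. Of the signals to Ciita, Ifngr1, Ifngr2, Irf1 and Spi1 differed by -2.48 ± 0.54, -2.52 ± 0.64, -1.73 ± 0.49 and -2.31 ± 0.39. Cd83 differed by -2.33 ± 0.57, and H2-Ea and Ctsl (1.76 ± 0.49) were the 2 that were higher. Between host medulla and host cortex, with 4.29% of all genes called, 6 of 28 were lower: H2-Ea (-2.55 ± 0.50), Ctss (-2.27 ± 0.37), Irf1 (-2.16 ± 0.53), Ifi30 (-1.63 ± 0.42), Ctsh (-1.41 ± 0.40) and Lgmn (-1.12 ± 0.32). Ctss was also 1 of the 2 genes higher in donor than in host medulla (2.52 ± 0.37, adjusted p = 0.00041), with H2-Ea, and its regional difference in host cells differed from that in C57BL/6 by -2.31 ± 0.49 (adjusted p = 0.018). The leukocyte-wide and epithelium-wide values given above for these comparisons stand beside these counts too.

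Expressed relative to leukocyte transcripts, most class II differences were smaller. When each array was centred on its mean of the 23 leukocyte-wide genes, 5 of the 38 called differences (those of the 12 comparisons of groups and the 6 differences of differences) kept their call. H2-Ob stayed lower in BALB/c, at -2.59 ± 0.48 in cortex (adjusted p = 0.011) and -2.48 ± 0.48 in medulla (adjusted p = 0.0094), and in host against C57BL/6 cortex, at -1.70 ± 0.52 (adjusted p = 0.033). H2-Ab1 and Cd74 stayed lower in host than in C57BL/6 medulla, at -1.06 ± 0.38 (adjusted p = 0.0091) and -1.39 ± 0.37 (adjusted p = 0.00086). Centring moves every gene: the median of all genes in that last comparison became 2.71. The shares of all genes called that stand above are on the deposited scale and are no background for the calls on this scale. In the donor comparisons with BALB/c, H2-Ab1 was at 0.01 ± 0.38 in cortex and 0.01 ± 0.38 in medulla on this scale, and Cd74 at -0.53 ± 0.37 and -0.48 ± 0.37, with no gene passing. The centred value of Ciita in host against C57BL/6 medulla was 0.57 ± 0.43 (adjusted p = 0.2), with the sign turned.

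**Figure D3:**
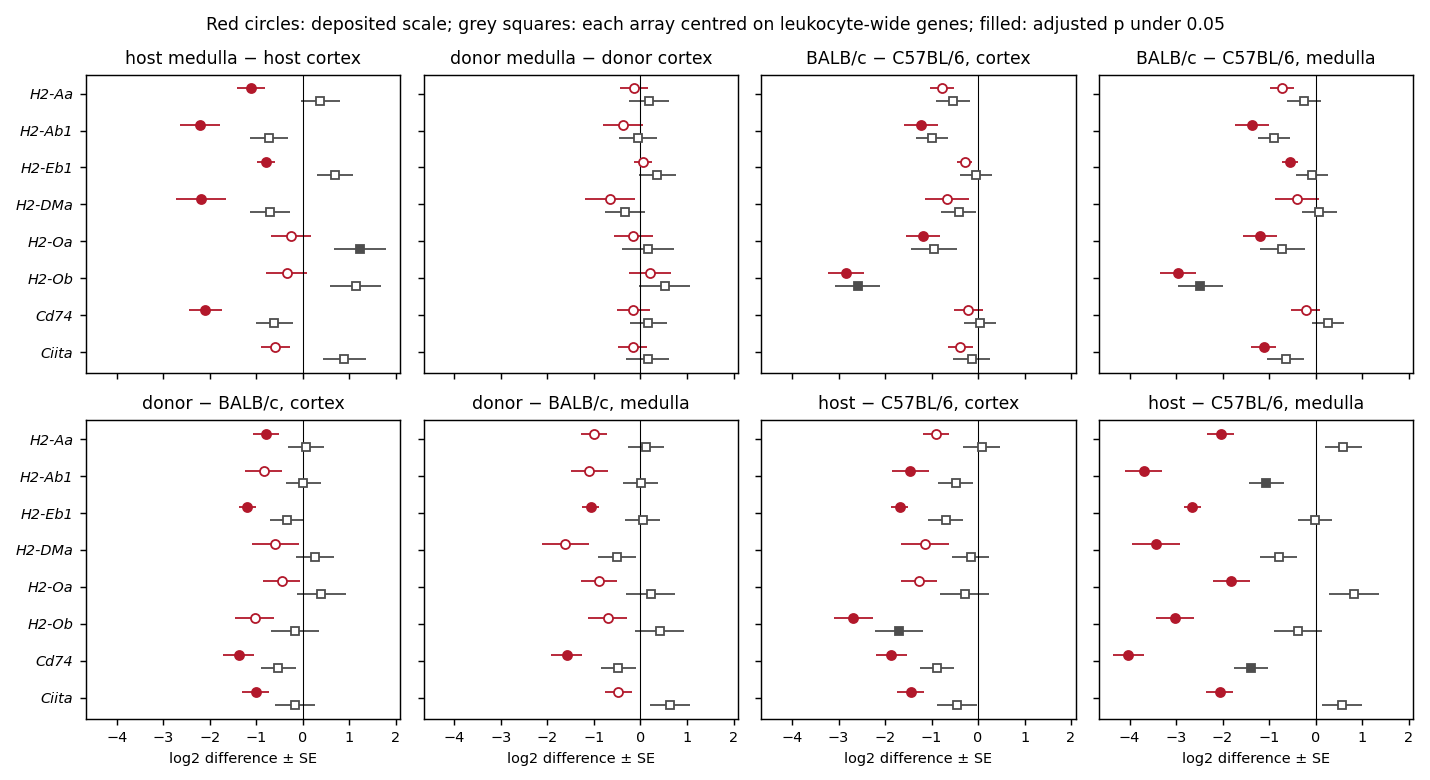
Log2 differences ± SE (horizontal axes) of the 8 class II genes in 8 comparisons of groups, on the deposited scale (red circles) and with each array centred on its leukocyte-wide genes (grey squares); filled marks have an adjusted p under 0.05. H2-Ob is the 1 gene with filled marks on both scales in the strain comparisons, and in host against C57BL/6 medulla all 8 red marks are filled, from -1.81 to -4.03, and 2 grey ones.

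**Figure D4:**
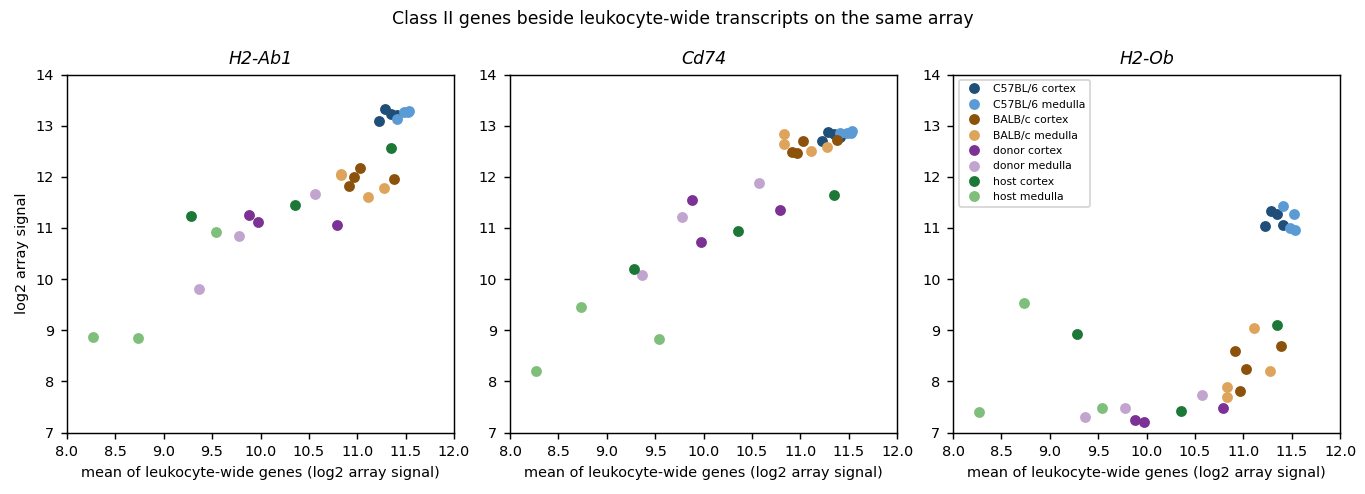
Log2 array signal of H2-Ab1, Cd74 and H2-Ob (vertical axes) against the mean of 23 leukocyte-wide genes on the same array (horizontal axes), 1 point per array, coloured by group. The 2 arrays with the lowest leukocyte means (host medulla, 8.27 and 8.74) also have the lowest H2-Ab1 (8.87 and 8.84), while H2-Ob sets C57BL/6 apart from BALB/c arrays of like leukocyte mean.

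The 8 genes also differed in how alike their patterns were over the 8 group means, given here as a description in which all values share the same arrays and the same normalization. Cd74 followed H2-Eb1 (r = 0.968) and H2-DMa (r = 0.967) most closely, and H2-Ob followed H2-Oa (r = 0.965) and was least like Cd74 (r = 0.543). Ciita was most like H2-Eb1 (r = 0.944) and H2-Ab1 (r = 0.933). Of all other genes, predicted ones left out, the 5 most like H2-Ab1 were Itgb2 (r = 0.989), a leukocyte integrin chain that is in the leukocyte-wide list, Ctsh (0.983), Prkcd (0.982), Tank (0.981) and Hdac9 (0.981). Those most like Ciita were Plcl2 (0.991), Nfam1 (0.990), Lrch1 (0.989), Zfp263 (0.985) and Stk17b (0.983). Those most like H2-Ob were Inpp4b (0.993), Nlrp1c-ps (0.987), Insyn2b (0.981), Cyp4f18 (0.970) and Apobec3 (0.965). Nlrp1c-ps was among the genes that separate the healthy strains by more than 2, with means of 11.42 and 11.11 in C57BL/6 and 7.51 and 7.42 in BALB/c.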

How the data were processed

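The deposited values are log2 array signal of 22549 probesets on 28 arrays, and RMA and oligo are named as the authors' tools, per the submitters' processing notes. RMA corrects background, quantile-normalizes arrays and summarises probes. The sources used here give no versions of these tools. The values were used as deposited. Of the probesets, 20646 have 1 symbol, 551 several and 1352 none listed; the last 2 kinds were left out, and the brightest probeset per gene was kept (19272 genes). Genes were tested if 3 or more arrays had them above that array's 40th percentile. The model was fitted in limma 3.58.1 (R 4.3.3), with 1 mean per group over 28 arrays (20 residual degrees of freedom), in 12 comparisons of groups and 6 differences of differences; tests were 2-sided. The procedure was tested on simulated data in which all arrays were independent, so the shared mice of the grafts were not covered. The number of arrays, 3 or 4 mice per group, limits the precision.

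The members and lists were chosen with earlier results of these data known. All members were named; of the pathway lists, genes that passed; and for H2-Ab1, Ciita and H2-Ob the 5 genes most like them. The labels' mouse numbers mark arrays of the same animal or graft. As a check, residuals of same-mouse arrays correlated by 0.155 (donor regions), 0.106 (host regions), 0.220 and 0.171 (donor and host, cortex and medulla), but by -0.003 and -0.006 in C57BL/6 and BALB/c. The alternatives were mouse as a random or fixed block, the groups compared alone, no or a strict filter, array weights, a robust variance trend, quantile normalization a second time, centring on leukocyte-wide genes, leaving out each array and, chosen after seeing the data, leaving out all host arrays.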

Additional observations from a re-analysis of the deposited data

Results flagged for a closer look

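Of the 32 member values examined in healthy groups of 4 arrays, 5 groups had 1 array whose gap to the others was large relative to the group's range, which can be small in tight groups, where chance alone flags about 1 in 20 groups. H2-Ab1 in C57BL/6 medulla replicate 2 was at 13.14, with the others at 13.27 to 13.28. H2-DMa in C57BL/6 medulla replicate 1 was at 11.93, with the others at 12.20 to 12.23. Cd74 in C57BL/6 medulla replicate 1 was at 12.89, with the others at 12.85. H2-Eb1 in BALB/c cortex replicate 4 was at 12.28, with the others at 12.47 to 12.50, and H2-Oa in BALB/c cortex replicate 2 was at 8.24, with the others at 7.68 to 7.77.

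A difference between groups was itself past the threshold for 3 genes. The medulla-cortex difference of Cd74 in host cells was below that in C57BL/6 cells by a difference of -2.16 ± 0.47 (adjusted p = 0.024). In medulla the donor-host difference was above the strain difference by 2.60 ± 0.56 for H2-Ab1 (adjusted p = 0.021), by 1.59 ± 0.26 for H2-Eb1 (adjusted p = 0.0019) and by 2.44 ± 0.47 for Cd74 (adjusted p = 0.009).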

How the results depend on the processing

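The number of arrays limits the precision, and array signal has no count behind it. Of the 38 called differences of class II genes, 38 kept their call without the filter and with mouse as a random block, 36 with array weights, 36 with a robust variance trend, 33 with the strict filter, 33 after a second quantile normalization, 20 when each fit held the compared groups alone, and 5 after centring on leukocyte-wide genes. Mouse as a fixed term could be fitted only where arrays share mice, and there 0 of 8 called differences kept their call. Leaving out 1 array at a time kept 222 of 295. No gene had a second probeset of its own, so that alternative was not run. The causes of the changes below were not tested.

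Counts of called genes out of 8 that moved by over 1.5 times are as follows; smaller gains stand in the report. With mouse as a random replicate block, they became 3 for the host regional difference against that of C57BL/6 (1 before) and 5 for donor-host against strain in medulla (3 before). With mouse as a fixed term they became 0 between host regions (5 before), 0 between donor and host medulla (2 before) and 2 for the host regional difference against C57BL/6. Those 2 were H2-Ab1 and H2-DMa, and Cd74, the 1 called before, was lost. With the compared groups alone they were 0 between host regions, 2 between strains in medulla, 0 between donor and BALB/c medulla, 0 between donor and host medulla, and 1 for donor-host against strain in medulla. The strict filter left 1 and 3 between strains in cortex and medulla (3 and 5 before). A second quantile normalization left 3 between strains in medulla and 0 for the host regional difference against C57BL/6. Array weights gave 2 for the latter, 1 for donor against host regional differences, and 1 and 5 for donor-host against strain in cortex and medulla. Without the host arrays, an alternative chosen after seeing the data, 4 were called between donor and BALB/c medulla, with H2-Ab1 and H2-Ob added in cortex.

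Centring on leukocyte-wide genes gave 1 between host regions (H2-Oa, higher and not called before, with 0 of the 5 earlier calls kept), 1 and 1 between strains in cortex and medulla, 0 and 0 between donor and BALB/c, 1 and 2 between host and C57BL/6, 0 between donor and host medulla, 0 for the host regional difference against C57BL/6 and 0 for donor-host against strain in medulla. It turned the sign of H2-Aa (0.37), H2-Eb1 (0.69) and H2-Oa (1.23) between host regions, of H2-Aa (0.068) in donor against BALB/c cortex and H2-Eb1 (0.043) in medulla, of H2-Aa (0.59), H2-Oa (0.82) and Ciita (0.57) in host against C57BL/6 medulla, and of H2-Eb1 (-0.021) between donor and host medulla. The shares of all genes called in the report are on the deposited scale and are no background for these centred counts.

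Leaving out 1 array gave 2 to 4 called genes between host regions, 1 to 2 and 1 to 4 between strains in cortex and medulla, 1 to 3 and 1 to 5 between donor and BALB/c, 4 to 6 and 8 to 8 between host and C57BL/6, and 1 to 4 between donor and host medulla. It gave 0 to 3 for the host regional difference against C57BL/6, 0 to 1 for donor against host regional differences, and 2 to 5 for donor-host against strain in medulla. In the other 7 comparisons it gave 0 to 0.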

Other observations

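H2-Eb2, a second I-E beta gene of the reference genome, was dim in every group, with 6.83 to 8.10 over the 28 arrays, although its promoter holds the same paired letters at a spacing of 26 bases as that of H2-Eb1. It was called in 0 of the 12 comparisons of groups by limma, and 3 of them had an unadjusted p under 0.05.

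Host medulla replicate 3, the 1 host array with H2-Ea at the C57BL/6 level (6.45), had the highest H2-Ob value of the 6 host arrays (9.53) and the lowest H2-DMa (7.57). Its Trim12a (6.11) and Slamf7 (6.50), genes higher in C57BL/6, were below every healthy BALB/c array (lowest 6.34 and 7.06). Its leukocyte-wide mean was 8.74. Host cortex replicate 1, with the lowest H2-Ea of the cortex arrays (10.18), had the highest H2-Ob (9.10), H2-Ab1 (12.57) and Trim12a (10.21) there. These are values of single arrays, and nothing was tested on them.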
